A study of Mus musculus with 20 samples.

Results

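The regions described here set adult luminal progenitors of the mouse mammary gland apart from 3 other normal mammary cell populations. They form 2 lists deposited by the authors for luminal progenitors: 306 regions named UAR, which were more accessible in luminal progenitors, and 27 regions named URR, which were less accessible. Together these 333 regions are a small part of the 11322 regions in all 8 UAR and URR lists of the series, and the labels do not spell out either abbreviation. All regions of both lists on the 19 autosomes and chromosome X were taken, with no further choice. The regions were selected on measured accessibility, by the authors, in the same libraries that gave the peak lists, so peak overlaps and folds below describe the regions and test nothing.

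Open chromatin was profiled by ATAC-seq, which reads where a transposase can insert adapters into DNA. The normal cells were sorted from mammary glands of C57BL6J mice, with 2 samples of each population: luminal progenitors, basal cells and mature luminal cells from adults, and fMaSC, the fetal mammary stem cell population, from embryos of day 18. The labels name no transgene, treatment or exact adult age. Each peak list was called on both samples of a population together, so no value per mouse and no spread between samples can be given. Sequencing depth is unknown, and no test between cell types was made. The other samples used were luminal cells sorted from transplanted PY230 tumours, a single mouse mammary tumour line grown in syngeneic C57BL6J hosts, with 3 SOX10-high and 3 SOX10-low samples. These tumour libraries played no part in choosing the regions.

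Luminal progenitors are hormone-receptor-poor cells of the inner, luminal layer of the gland, and they give rise to the cells that later make milk. Their known markers include Kit, a receptor tyrosine kinase, and Elf5, an ETS-family factor of alveolar development. Mature luminal cells share the inner layer and sense hormones, and basal cells form the contractile outer layer. Regions that are accessible in a single cell type often lie away from gene starts and act as enhancers. No gene annotation or sequence of the mm9 build was used, so regions are named by mm9 position, genes are not assigned to them, and the labelled cell type was not checked against Kit and Elf5.

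Luminal progenitor UARs held a peak of their own cell type, mostly at the centre. All 306 held a luminal progenitor peak. Their width had a median of 1600 bp and ran from 800 to 9300 bp. UARs of the other types were of similar width, with medians of 1700 bp in basal, 1500 bp in mature luminal and 1400 bp in fMaSC. Luminal progenitor peaks covered a median of 64.8% of the luminal progenitor UAR (lowest 16.4%, highest 88.6%). At the exact centre of the region, 282 of 306 UARs lay under a luminal progenitor peak. Most UARs held a single such peak, and 36 of 306 held more. The 350 peaks inside UARs made up 0.583% of the 60030 luminal progenitor peaks, and the UARs touched 0.273% of the 128797 regions in the union of the 4 peak lists.

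The luminal progenitor peaks in UARs were strong, but few were among the strongest of their list. The fold of a peak is the authors' enrichment over the peak caller's background. The strongest luminal progenitor peak of each UAR had a median fold of 11.3, against 6.86 for all luminal progenitor peaks. In rank, its median place was at the 76.0th percentile of the list, with a lower quartile at 65.2 and an upper quartile at 86.7. The lowest UAR peak had a fold of 4.36, at percentile 13.7, and the highest a fold of 26.0, at percentile 98.7, while the strongest luminal progenitor peak of the nuclear genome had a fold of 61.1. High fold together with absence from the other types did not always lead to a place in the list. Of 77 luminal progenitor peaks that overlapped no peak of another type and reached the UAR median fold, 60 lay in a UAR and 17 did not.

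Other cell types had few and weak peaks in the UARs. No peak of another type lay in 195 of 306 UARs (63.7%, exact 95% binomial interval 58.1 to 69.1%, which covers counting error only). The other 111 UARs, or 36.3%, held a peak of at least 1 other type, against 90.1% of luminal progenitor peaks outside UARs. By type, fMaSC peaks lay in 85 UARs (27.8%, against 71.1% of peaks outside), mature luminal peaks in 59 (19.3%, against 64.8%) and basal peaks in 56 (18.3%, against 74.9%). Since UARs were selected for low accessibility in the other types, these gaps follow from the selection. As the only other type, fMaSC had a peak in 29 UARs, mature luminal cells in 10 and basal cells in 8. These counts were not set beside shares over peaks outside UARs. The lists also differed in size, with 79910 fMaSC, 61584 mature luminal and 80294 basal peaks. Where a peak of another type was present, it covered a median of 18.4% of the UAR in fMaSC, 20.4% in mature luminal and 20.4% in basal cells. These peaks ranked low in their own lists, with a median percentile of 36.0 in fMaSC, 35.4 in mature luminal and 23.7 in basal cells.

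Within the UARs, the weak peaks of other types lay almost wholly under a luminal progenitor peak. Of the bases under a basal peak within UARs, 99.8% were also under a luminal progenitor peak. For fMaSC this share was 99.6%, and for mature luminal cells 97.6%. Bases of these peaks beyond the edges of a UAR were not counted. No such share was computed for shared luminal progenitor peaks outside UARs, so this nesting is not shown to be particular to UARs. In the profile around region centres, fMaSC peaks lay over 32 of 306 centres and mature luminal and basal peaks over 26 each. At 1500 bp to the right of the centre, outside most UARs, these numbers were 1 for fMaSC, 5 for mature luminal and 3 for basal cells, and 11 for luminal progenitors. Further out, at 2800 bp, they were higher again, at 15 for fMaSC, 10 for mature luminal and 15 for basal cells, and 24 for luminal progenitors.

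**Figure D1:**
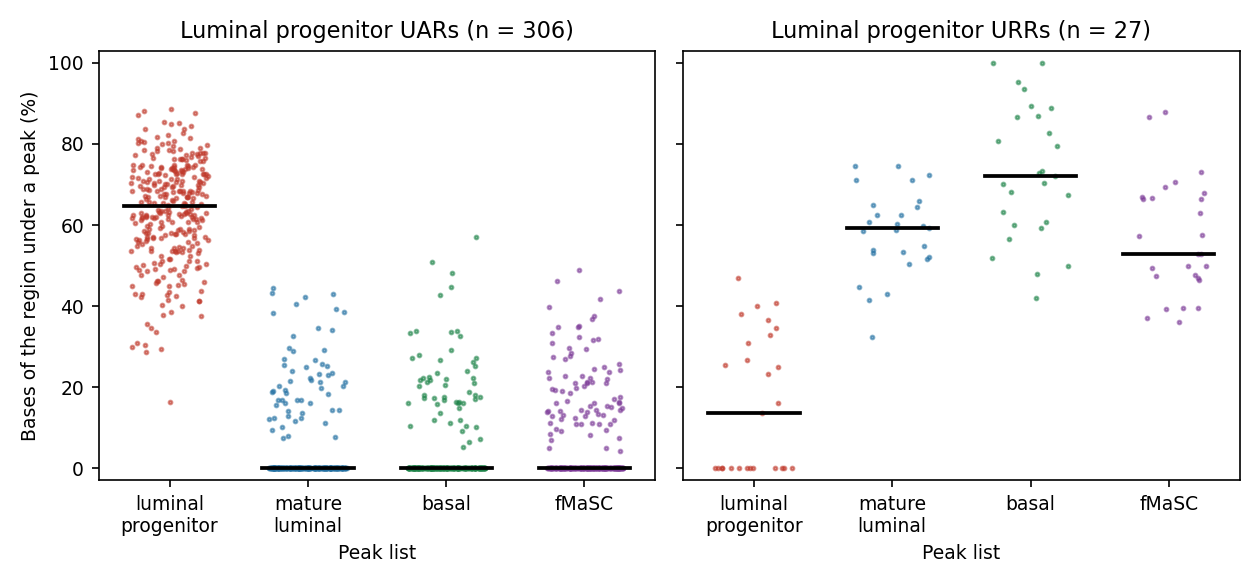
Percent of the bases of each region under peaks of each normal cell type (y axis) for the 306 luminal progenitor UARs (left) and 27 URRs (right); each point is a region and black bars are medians. In UARs the medians of the 3 other types are at 0, and in URRs the luminal progenitor median of 13.5% is the lowest of the 4.

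**Figure D2:**
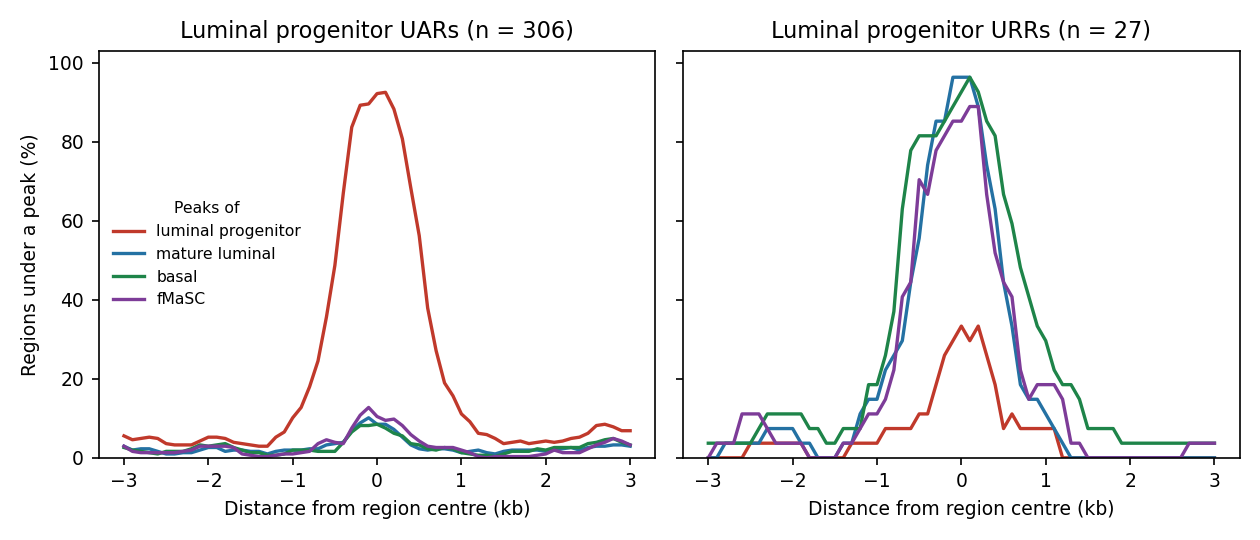
Percent of regions that lie under a peak of each normal cell type (y axis) at distances from the region centre (x axis, kb), for UARs (left) and URRs (right). Luminal progenitor peaks cover 92.2% of UAR centres and 33.3% of URR centres.

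UARs that other types shared differed in make-up from those with a luminal progenitor peak alone. The 195 UARs without another type's peak had a median luminal progenitor fold of 10.2 and a median width of 1400 bp. The 111 shared UARs had a median fold of 15.4 and a median width of 2000 bp, and the 25 UARs with peaks of all 3 other types had a median fold of 18.1. The score went the other way in that last group. The score is the authors' value for each region, on an unstated scale. It had a median of 564 in the 25 UARs shared by all types and of 1175 in the 195 with a luminal progenitor peak alone. Across the 306 UARs the score rose weakly with the fold of the luminal progenitor peak (Spearman's rho = 0.32), a description of regions from the same libraries. UARs were selected for higher accessibility in luminal progenitors, so these contrasts in fold and score are not independent of the selection. A wider region also meets an overlap of 1 bp with another type's peak more easily. The UARs with peaks in every type combined strong luminal progenitor peaks with mostly low scores. An example is the UAR on chromosome 1 at chr1:34246601-34248200, which had the highest luminal progenitor fold of the list, 26.0, and folds of 7.72 in mature luminal, 12.9 in basal and 13.4 in fMaSC cells, and ranked 297 by score with a score of 381.

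**Figure D3:**
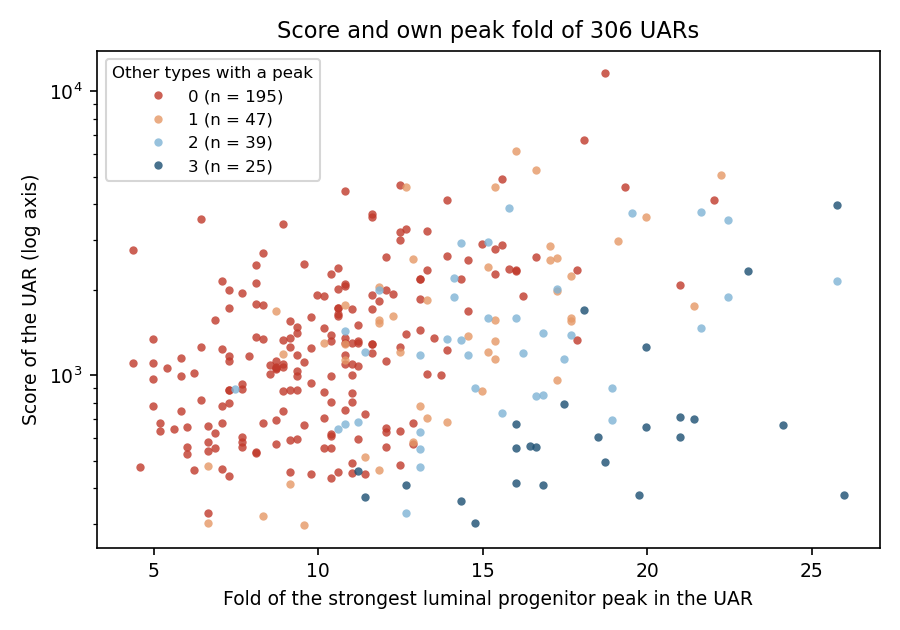
Score of each UAR (y axis, log scale) against the fold of its strongest luminal progenitor peak (x axis), coloured by how many of the 3 other normal types had a peak in it. The 25 UARs with peaks of all 3 other types lie at folds of 11.2 and above, most of them at low scores.

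Among the 15 UARs of highest score, 13 held a single luminal progenitor peak, and the strongest such peak of each had a fold from 10.8 to 25.8. The first lay on chromosome 5 at chr5:39176501-39178200, with a score of 11551 and a luminal progenitor fold of 18.7, and no other type had a peak there. The next was on chromosome 7 at chr7:34798301-34800000, with a score of 6734 and a fold of 18.1, again with no other type. The third, on chromosome 8 at chr8:96207101-96209000, had a score of 6156 and a fold of 16.0, and a mature luminal peak of fold 8.97 covered 38.3% of it. Of the 15 leading UARs, 8 had no peak of another type and 7 had at least 1. The highest-ranked UAR with peaks of all 3 other types was number 14, on chromosome 3 at chr3:79655301-79657500. Its luminal progenitor fold was 25.8, and its folds in mature luminal, basal and fMaSC cells were 5.73, 4.96 and 5.32. At the low end of the list, the last 5 UARs had scores from 297 to 328 and luminal progenitor folds from 6.65 to 14.8, and each held a peak of at least 1 other type. The widest UAR, of 9300 bp at chr15:101822501-101831800, was covered to 77.2% by luminal progenitor peaks, to 14.2% by mature luminal and to 4.96% by fMaSC peaks, with no basal peak.

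URRs gave the mirror image, at far fewer sites. Mature luminal, basal and fMaSC peaks were present in all 27. A luminal progenitor peak was present in 14 of them (51.9%, exact interval 31.9 to 71.3%). Among all 30411 union regions with peaks of the 3 other types, 91.9% had a luminal progenitor peak, and 0.0225% of all union regions touched a URR. By median, basal peaks covered the most of a URR, at 72.1%, followed by mature luminal peaks at 59.4% and fMaSC peaks at 52.9%. This order did not hold in every URR. Median peak widths over the whole lists had the same order, at 678 bp in basal, 561 bp in mature luminal and 457 bp in fMaSC. Luminal progenitor peaks covered a median of 13.5% over all 27 and at most 46.8%. Where present, their median fold was 5.92, at the 39.9th percentile of their list, while the median percentile of the other types' peaks was 86.8 in basal, 79.3 in fMaSC and 78.7 in mature luminal cells. Luminal progenitor peaks overlapped 23.2% of the basal, 28.2% of the mature luminal and 30.1% of the fMaSC peak bases inside URRs.

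The URR of highest score lay on chromosome 2 at chr2:68711501-68712700, with a score of 3812. Luminal progenitors had no peak there, a basal peak of fold 19.6 covered 100% of it, and mature luminal and fMaSC peaks had folds of 12.5 and 7.60. The next, on chromosome 3 at chr3:50663501-50664500, had folds of 20.7 in basal, 13.9 in fMaSC and 11.7 in mature luminal cells. The third was the widest, 4200 bp at chr2:109532001-109536200, and basal peaks again covered 100% of it. The first and the third were also basal UARs, and no other of the 27 URRs lay in a UAR list of another type. The 5 URRs of highest score had no luminal progenitor peak. The lowest score, 329, belonged to chr11:49605701-49609000, where a luminal progenitor peak of fold 5.61 covered 32.8%. A pair of URRs on chromosome 14, at chr14:118964701-118966600 and chr14:119057001-119058400, lay 90400 bp apart, the smallest gap between URRs. The strongest luminal progenitor peak in any URR, of fold 12.5, was in the first of that pair, beside folds of 27.6 in basal, 26.4 in mature luminal and 25.6 in fMaSC cells. No UAR of luminal progenitors overlapped a UAR or URR of another type (0 of 306, which allows a share of up to 0.980%). Each list sets a type against the others, so little overlap between UAR lists follows from the selection. Neither this count nor that of URRs in basal UARs was set beside a share over all peaks.

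The tumour lists gave a readout from other libraries. They compare luminal PY230 cells with high and low SOX10, an HMG-box factor of the neural crest. Open and closed below mean a place in the list of that name. A region in neither list may be accessible in both kinds of cell or in neither. In these lists, 91 of 306 UARs (29.7%, exact interval 24.7 to 35.2%) were open in SOX10-high cells and 1 was closed. Of luminal progenitor peaks outside UARs, 2.73% were open and 8.46% closed, and over all union regions these shares were 1.88% and 11.0%. Shares for the UARs of the other types were planned as a further background and are not given here. Whether the open share is particular to luminal progenitor UARs is therefore not shown. The UARs took up 94 of the 3208 open regions, or 2.93% of that list. The overlaps were not marginal, since the open region covered a median of 90.9% of the UAR and at least 50% in 89 of 91 cases. Within the open list, these regions had a median score at percentile 64.1, with a range from 2.84 to 99.8. The 1 closed UAR, at chr14:60423901-60426300, ranked 284 by score and was covered to 33.3% by a closed region.

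Luminal progenitor peaks that no other type shared were in the open list of the tumour cells at a higher share. Of luminal progenitor peaks outside UARs, those without another type's peak were open in 8.82% of cases (521 of 5905) and shared ones in 2.07% (1111 of 53775). Peaks inside UARs, counted in the same way, were open in 31.2% (72 of 231, exact interval 25.3 to 37.6%) where no other type had a peak and in 25.2% (30 of 119, 17.7 to 34.0%) where another type did. The shared peaks outside UARs were thus rarely in the open list, which does not show that they were inaccessible in the tumour cells. Shared peaks inside UARs had an interval that overlapped that of the unshared ones. By type, 13 of 59 UARs with a mature luminal peak were open (22.0%), 11 of 56 with a basal peak (19.6%) and 21 of 85 with an fMaSC peak (24.7%). Of the 25 UARs with peaks of all 3 other types, 3 were open (12.0%, 2.55 to 31.2%).

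Peak strength was also compared. Among luminal progenitor peaks outside UARs and without another type's peak, the share open was 6.94% at folds under 5, 11.6% from 5 to 7.5, 16.9% from 7.5 to 10 and 21.1% from 10 to 15 (8 of 38, exact interval 9.55 to 37.3%). Shared peaks outside UARs showed no such rise, with 2.27% under 5 and 0.580% at 15 and over. UARs were at 28.6%, 28.9%, 35.1%, 28.1% and 28.9% over the same 5 classes of fold, from 7, 38, 57, 128 and 76 regions. These UARs include shared and unshared regions, so the peaks inside UARs were also counted singly and split by sharing. Unshared peaks inside UARs were open in 9 of 26 cases at folds under 5 (34.6%, 17.2 to 55.7%, against 6.94% outside). Only 7 UARs had their strongest peak in that class, so most of these 26 peaks lay in UARs with a stronger peak. Peaks of the same UAR can touch the same open region, and the intervals count them as independent. From 5 to 7.5 they were open in 11 of 45 (24.4%, 12.9 to 39.5%, against 11.6%), and from 7.5 to 10 in 20 of 57 (35.1%, 22.9 to 48.9%, against 16.9%). In each of these 3 classes the share outside lay below the interval of the peaks inside. From 10 to 15 they were open in 24 of 87 (27.6%, 18.5 to 38.2%), an interval that contained the 21.1% outside. Shared peaks inside UARs at folds of 15 and over were open in 14 of 60 cases (23.3%, 13.4 to 36.0%, against 0.580% outside). That class has no upper limit, and folds in UARs ended at 26.0 while those of all luminal progenitor peaks reached 61.1. The number and fold of the other types' peaks were not matched either, so these 2 shares are not like for like. UARs are wider than single peaks, and with each UAR set to 500 bp around its centre, 89 of 306 were open.

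**Figure D4:**
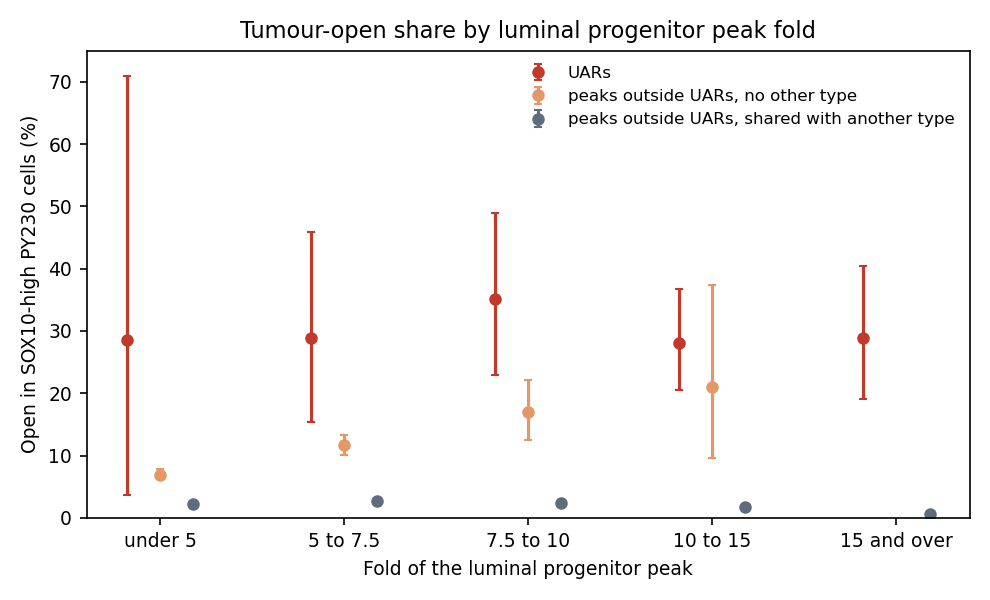
Percent of regions open in SOX10-high PY230 cells (y axis; bars are exact 95% binomial intervals, counting error only) by class of luminal progenitor fold (x axis), for UARs and for luminal progenitor peaks outside UARs with and without a peak of another type; classes with fewer than 5 regions are left out. UARs lie between 28.1% and 35.1% in every class, and unshared peaks outside UARs go from 6.94% to 21.1%.

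Within the UAR list, the open share was highest among the regions of highest score. Of the 77 UARs of highest score, from 1915 to 11551, 33 were open (42.9%, exact interval 31.6 to 54.6%). The next 76 had 19 open (25.0%), the following 76 had 21 (27.6%), and the 77 of lowest score had 18 (23.4%, 14.5 to 34.4%). The intervals of the highest and the lowest group overlap, and no test was made. In 4 groups of the same sizes by luminal progenitor fold the share was between 23.7% and 34.2%, with no order, and by width between 27.6% and 31.6%. Of the 15 UARs of highest score, 7 were open, the best ranked being number 2 on chromosome 7. The first UAR of the list was in neither tumour list. The UAR with the highest score in the open list, at chr4:114451401-114454600, ranked 17 among UARs, and an open region of score 497 covered 100% of it.

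URRs were called in the opposite direction. In SOX10-high cells 20 of 27 URRs were closed (74.1%, exact interval 53.7 to 88.9%). None was open, and a count of 0 in 27 allows up to 11.1%. Of all union regions with peaks of the 3 other types, 8.82% were closed and 0.385% open. The share was higher, at 25.7%, among the 2464 such regions that lacked a luminal progenitor peak. It also differed by the mature luminal fold. Outside URRs, regions of this kind without a luminal progenitor peak were closed in 19.7% of cases where the mature luminal fold was under 10, in 61.7% from 10 to 15 and in 84.6% at 15 and over (55 of 65). With a luminal progenitor peak, the shares were 5.74%, 8.96% and 7.91%. URRs were closed in 4 of 4, 5 of 10 and 11 of 13 cases over the same classes. Of the 13 URRs with a mature luminal fold of 15 and over, 12 held a luminal progenitor peak. Of these, 10 were closed (83.3%, exact interval 51.6 to 97.9%), against 7.91% of regions outside URRs with such a peak. The regions outside were not matched for the fold of the luminal progenitor peak. That fold had a median of 5.92 in the URRs that held one, so these shares are not like for like. Of the 9 URRs without a luminal progenitor peak and with a mature luminal fold from 10 to 15, 4 were closed (44.4%, 13.7 to 78.8%), an interval that contained the 61.7% outside. URRs that did hold a luminal progenitor peak were closed in 12 of 14 cases, and those without in 8 of 13.

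Distances between UARs were described without a background. The gap from a UAR to the nearest other UAR had a median of 1752900 bp, and 16 of 306 (5.23%) had another within 10 kb. A list of 306 regions is sparse over the genome, and these values were not set beside an equal number of luminal progenitor peaks. Whether UARs lie closer together or further apart than such peaks is therefore not shown. With steps of at most 50 kb, 30 UARs fell into 14 runs, 12 of 2 UARs and 2 of 3 UARs. The first run of 3 spanned 12.7 kb at chr5:75991501-76004200. Its members had scores of 993, 1725 and 1147, no other type had a peak in any of them, and the third was open in SOX10-high cells. The second run of 3 spanned 10.0 kb at chr14:14184901-14194900, and other types had peaks in all of its members. Its first member, of score 320, was open and the others, of scores 413 and 1468, were not. The leading UAR of the whole list formed a run of 2 with a UAR of score 884 at chr5:39204901-39206300, and neither was open.

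Neighbouring UARs were not always alike in their place in the open list. Of the 12 runs of 2 UARs, 9 had 1 UAR open and the other not, 1 had both open and 2 had neither. Over all UARs, 91 of 306 (29.7%) were open, so mixed runs would also occur if neighbours were unrelated. In both runs of 3, 1 of the UARs was open. An open UAR and one in neither list thus lay as close as 900 bp apart on chromosome 11, at chr11:34103101-34108700. On chromosome 4, at chr4:19894501-19940900, the gap between such UARs was 43600 bp. The number of runs is small, and no test was made.

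**Figure D5:**
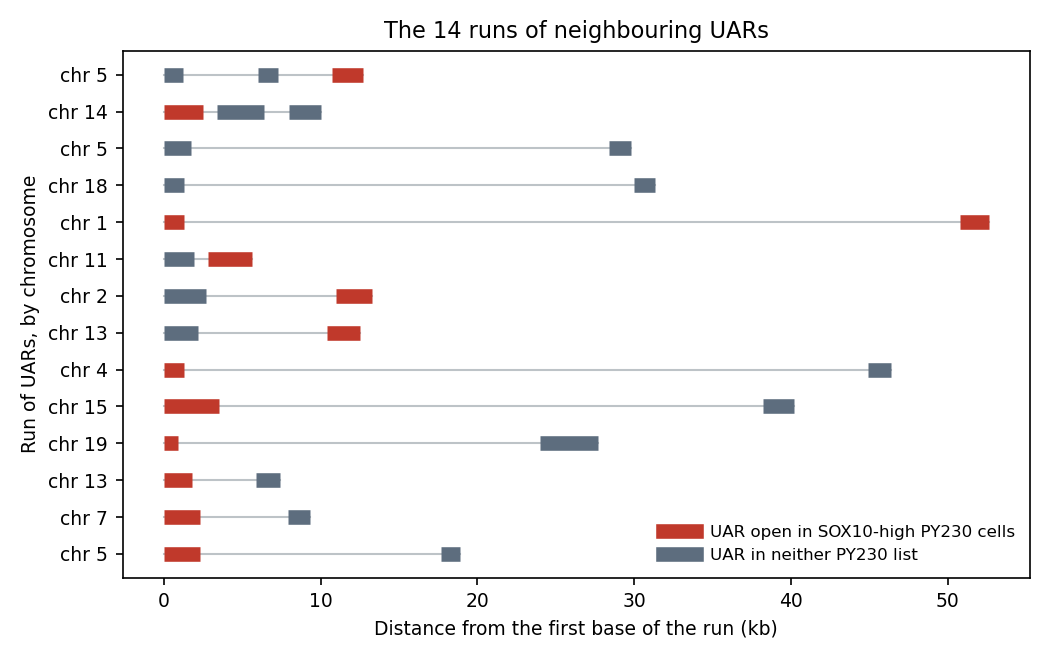
Position of the UARs (blocks, drawn to scale in width) in each of the 14 runs of UARs with steps of at most 50 kb (y axis, labelled by chromosome), as distance from the first base of the run (x axis, kb). Red blocks are open in SOX10-high PY230 cells and grey blocks are in neither tumour list; 9 of the 12 runs of 2 hold a block of each colour.

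Distances to chromatin that all types keep accessible were also measured. The gap to the nearest union region with peaks of all 4 types had a median of 23168 bp. Of the 195 UARs without another type's peak, 52 (26.7%, exact interval 20.6 to 33.5%) lay within 10 kb of such a region. The share was 43.3% (42.0 to 44.5%) among luminal progenitor peaks outside UARs that also lacked another type's peak. Regions that set the other types apart were treated in the same way. Within 50 kb of a mature luminal UAR were 15 of 195 (7.69%, 4.37 to 12.4%), against 16.4% of the unshared peaks outside. Within 50 kb of a basal UAR were 27 of 195 (13.8%, 9.33 to 19.5%), against 20.1%. Within 50 kb of an fMaSC UAR were 4 of 195 (2.05%, 0.562 to 5.17%), against 5.05%, which that interval contains. For regions that mature luminal cells hold less accessible, the mature luminal URRs, the shares were 11.8% and 10.1%.

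The surroundings of the 214 UARs in neither tumour list were described in the same way. Of these UARs, 76 (35.5%, 29.1 to 42.3%) had a closed PY230 region within 50 kb, against 48.9% of unshared luminal progenitor peaks outside UARs that were in neither list. An open PY230 region lay within 50 kb of 58 of them (27.1%, 21.3 to 33.6%), against 21.6%, which that interval contains.

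UARs were spread over all 20 chromosomes studied. Chromosome 18 held 22 of 306 UARs (7.19%, exact interval 4.56 to 10.7%) against 3.62% of luminal progenitor peaks, and 7 of the 22 were open in SOX10-high cells. Chromosome 5 held 27 (8.82%, 5.90 to 12.6%, against 5.66%), of which 8 were open. Chromosome 11 held 9 (2.94%, 1.35 to 5.51%, against 5.77%), of which 3 were open. On the other 17 chromosomes the interval contained the share of luminal progenitor peaks, and no adjustment was made for the number of chromosomes. The 27 URRs lay on 15 chromosomes, with 3 each on chromosomes 2, 12 and 14.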

How the data were processed

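Sorted cells were profiled by ATAC-seq, per the labels' protocols. Tools listed in the submitters' processing notes, without roles, are MACS2 2.1.1 (a peak caller), SICER, bedtools 2.20.1, Bowtie 0.12.8 (an aligner) and SAMtools 1.3.1, with mm9 as the build. Handling of duplicates, repeats and the transposase offset, which bears on where peaks are called, was not given in the sources used here. Each of the 4 peak lists was deposited by the authors with a fold (ratio over the caller's background) per peak, at a q-value of 0.001 per the list names. The 10 other lists were deposited by the authors with a score per region on an unstated scale. The calling method was not stated.

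Coordinates are 1-based. Score lists, which lie on a 100 bp grid, were moved by 1 base, and mitochondrial peaks were left out. Overlap means at least 1 bp. Peaks were merged into a union across the 4 types. Intervals are exact (Clopper-Pearson) at 95%, and the limit for a count of 0 is 3 counts of the total. PCR reads are not independent molecules, and regions are not replicates, so intervals cover counting error only. No test was made, since each list pools samples. Regions named were the 15 UARs of highest and 5 of lowest score, the widest, the leading URRs, runs of 3 or more, closed UARs, leading open UARs and leading UARs shared by all types. The UARs shown for the highest own fold, the highest score in the open list, the runs of 2 named, the pair on chromosome 14 and the classes of fold were chosen after values were seen. Members and lists were chosen with earlier results of these data known. The gene lists planned were not used. Sequences and gene names of mm9 positions were not analysed here. Analyses used Python 3.11.15, numpy 2.4.6, pandas 2.3.3, scipy 1.17.1 and matplotlib 3.10.9, and the overlap code was tested on simulated data.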

Additional observations from a re-analysis of the deposited data

How the results depend on the processing

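Alternatives were a 50% overlap, only peaks that reach the median fold of their list, regions set to 500 bp, autosomes only, UARs at or above the median score, and other neighbour distances. Of 40 recomputed values, 26 stayed within the interval of the reported one, among them all 10 on autosomes and every share of UARs open or of URRs closed in SOX10-high cells. With 50% overlap by a single list, UARs held an own peak in 85.0% and a peak of another type in 0.654%, URRs held an own peak in 0% and peaks of all 3 other types in 59.3%, and closed UARs came to 0%. With the stronger peaks only, UARs held an own peak in 90.8% and another type's peak in 11.8%, and URRs an own peak in 18.5%. At 500 bp, UARs held an own peak in 97.4% and another type's in 28.4%, and closed UARs came to 0%. Above the median score, closed UARs came to 0% and UARs with a neighbour within 10 kb to 1.31%. With a 50 kb distance the neighbour share was 9.80%. No sample could be left out and no paired analysis was possible because each list pools the samples of a group. Depth is unknown, so absence of a peak means only that none was called.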
